A study of Mus musculus with 14 samples.

Results

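Potassium channels let potassium leave a cell, and the genes that encode their subunits carry symbols that begin with Kcn. Of the 48440 genes in the deposited table, 94 were protein-coding genes with such a symbol, and the 87 with at least 10 reads in at least 2 of the 14 libraries were taken as the family. Kcnn4, the intermediate-conductance calcium-activated channel, was just inside this threshold, with a highest count of 11 reads. Kcne3 and Kcnj15 were just outside, each with 1 library over the threshold and highest counts of 11 and 25 reads. The other 5 genes left out had at most 6 reads in any library. All 87 passed the filter on low counts used for the tests.

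The libraries came from bulk RNA of C57BL/6 mice, either CARIP-/- (knockout) or wild type. The knockout was represented by 3 cerebellum, 2 cerebral cortex and 2 hippocampus libraries, and the wild type by the same numbers. No agent was given to either genotype in the labels, and neither the age of the mice nor the way the allele was made is given in the sources used here. The labels do not say whether libraries with different numbers are separate mice, so the p-values measure the spread between these libraries only.

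A functional channel is built from pore-forming subunits, and the family sorts by how the pore opens. Voltage-gated subunits (Kv) open when the membrane depolarises and set the shape and rate of action potentials. Calcium- and sodium-activated subunits follow the inner ion levels, inward rectifiers (Kir) hold the resting potential and buffer extracellular potassium in glia, and two-pore-domain subunits carry background leak. Auxiliary subunits bind pores and alter their gating or transport. Neurons of the cerebellum, cortex and hippocampus are known to use different combinations of these subunits.

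Library totals ranged from 20.1 to 38.8 M reads (median 24.7 M), and the family took 0.608% to 0.747% of them. The 8 granule cell markers summed to 3700 to 6150 CPM (counts per M reads of the scaled total) in cerebellum and 108 to 210 CPM elsewhere, and Fibcd1 of hippocampal neurons was at 116 to 130 CPM in hippocampus against at most 21.4 CPM elsewhere. The 8 cortical excitatory neuron markers summed to 1370 to 2000 CPM in cortex, 1290 to 1520 in hippocampus and 352 to 445 in cerebellum, so the first pair overlapped. Some libraries stood apart in markers of other cells. Knockout cortex 2 held 1230 CPM of the 9 striatal markers against 244 to 359 CPM in the other cortical libraries, 815 CPM of the 8 thalamic markers against 286 to 296 CPM, and 619 CPM of the 8 choroid plexus markers against 15.5 to 36.0 CPM. None of these 25 genes was at 0 in a cortical library. Wild-type cerebellum 1 held 30.1 CPM of the choroid plexus markers against 669 to 1410 CPM in the other cerebellar libraries. Wild-type cerebellum 2 and knockout cerebellum 2 held 8930 and 4300 CPM of the 8 oligodendrocyte markers against 2260 to 3270 CPM, and wild-type hippocampus 2 held 995 CPM of the choroid plexus transcript Ttr against 35.2 to 68.6 CPM. In bulk RNA, fewer cells of a type and less RNA per cell cannot be told apart.

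The promoters of 4 members are shown, the 2 in each direction with the largest difference between cerebellum and cortex among those with a RefSeq entry, because their levels part these regions by 8.17-fold to 196-fold. Each window runs from 250 bases before to 50 bases after the 5′-most start in RefSeq (GRCm38.p6), 5′ to 3′ on the gene's own strand, and capitals mark the GC box GGGCGG on either strand, a sequence bound by Sp-family factors. Kcng4 and Kcnk10 had higher levels in cerebellum, Kcnj4 and Kcnf1 lower.
Kcng4, chr8:119635631-119635930, minus strand: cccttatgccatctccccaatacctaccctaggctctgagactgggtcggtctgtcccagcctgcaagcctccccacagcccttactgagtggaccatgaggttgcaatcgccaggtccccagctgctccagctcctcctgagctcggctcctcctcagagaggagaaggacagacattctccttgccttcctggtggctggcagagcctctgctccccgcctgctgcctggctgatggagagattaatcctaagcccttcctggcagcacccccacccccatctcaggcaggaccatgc
Kcnk10, chr12:98578164-98578463, minus strand: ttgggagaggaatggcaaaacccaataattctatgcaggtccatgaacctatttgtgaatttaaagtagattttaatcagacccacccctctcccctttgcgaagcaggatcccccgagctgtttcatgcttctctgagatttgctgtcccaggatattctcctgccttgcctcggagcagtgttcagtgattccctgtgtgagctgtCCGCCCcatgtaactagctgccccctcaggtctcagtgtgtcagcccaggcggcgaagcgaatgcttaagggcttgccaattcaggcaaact
Kcnj4, chr15:79505192-79505491, minus strand: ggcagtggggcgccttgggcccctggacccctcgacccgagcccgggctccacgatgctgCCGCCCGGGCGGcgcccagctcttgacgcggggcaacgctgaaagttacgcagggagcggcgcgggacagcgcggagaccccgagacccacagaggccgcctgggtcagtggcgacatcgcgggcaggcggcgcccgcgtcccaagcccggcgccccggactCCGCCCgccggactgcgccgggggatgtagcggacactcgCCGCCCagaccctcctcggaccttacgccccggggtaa
Kcnf1, chr12:17176839-17177138, minus strand: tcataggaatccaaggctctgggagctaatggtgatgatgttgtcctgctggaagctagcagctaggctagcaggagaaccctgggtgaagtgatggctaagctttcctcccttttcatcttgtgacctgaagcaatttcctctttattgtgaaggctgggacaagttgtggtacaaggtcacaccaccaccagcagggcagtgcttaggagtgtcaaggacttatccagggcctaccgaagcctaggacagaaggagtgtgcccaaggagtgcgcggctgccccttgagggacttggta

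The Kcnj4 window held 4 GC boxes and 41 CG pairs, the Kcnk10 window 1 and 7, the Kcng4 window 0 and 4, and the Kcnf1 window 0 and 3. The pairs that were higher and lower in cerebellum each held 1 window with a GC box and 1 without. RefSeq windows matched 63 of the 87 members by symbol. Among these, 57.1% held GGGCGG on either strand, against 35.9% of the windows of 27025 genes. TATAAA, which shares no overlap with GGGCGG, was in 3.17% of the members' windows and in 14.2% of all. The median number of CG pairs, some of which lie inside GC boxes, was 10 in the members' windows and 7 in all. The windows of all genes were not filtered by gene type or expression, whereas members are protein-coding genes with reads in these libraries. The compared groups are thus unlike beyond family membership.

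Levels are compared between genes only per kilobase of exon. On that scale the mean over 14 libraries spanned 1860-fold. There were 33 members at 10 CPM per kb or more, 36 from 1 to under 10 and 18 under 1. The 10 highest members held 46.5% of the family's summed level. They were led by Kcnab2, a cytoplasmic beta subunit of Kv1 channels, at 74.4 CPM per kb. Others among the 10 were Kcna1 (53.2 CPM per kb), Kcnd2 (50.3), Kcna2 (44.7), Kcnc1 (42.8), Kcnj10 (42.3), Kcnk1 (37.1) and Kcnj9 (25.5). The SD over the 14 libraries, which includes differences between regions, exceeded 7 CPM per kb for each of these. The order is that of the pooled mean and did not hold in every region. In hippocampus Kcnab2 was at 139 ± 7.49 and Kcna1 at 41.5 ± 2.47 CPM per kb (SD, n = 4). In cerebellum they were at 25.3 ± 12.3 and 69.6 ± 7.22 CPM per kb (SD, n = 6).

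**Figure D1:**
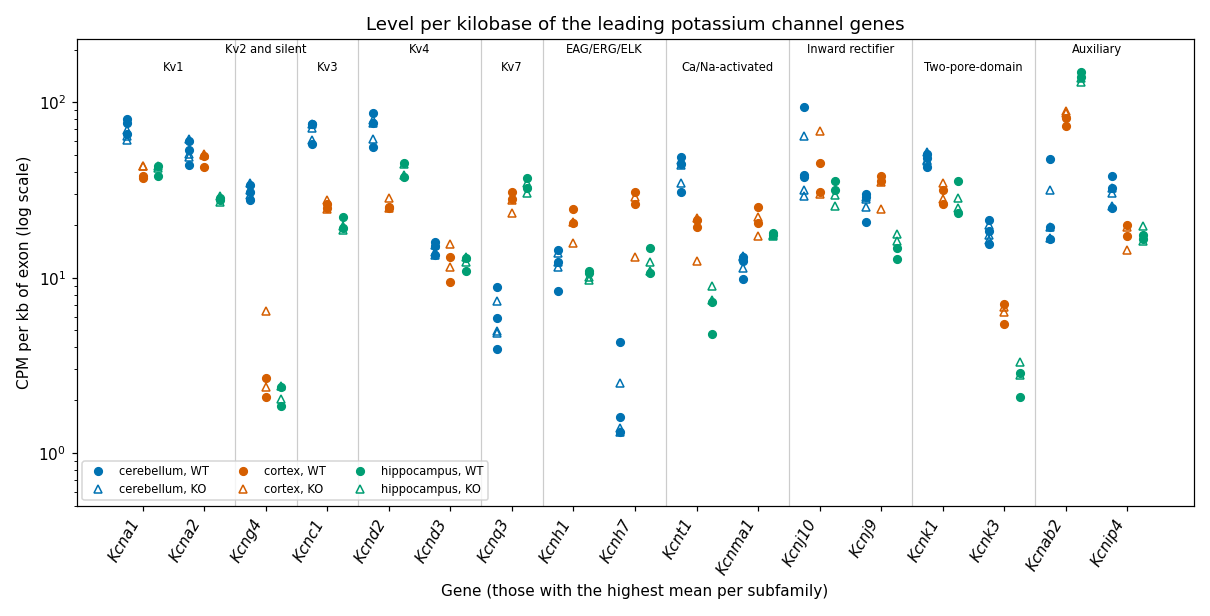
Level per kilobase of exon (CPM per kb, log scale) of leading members of each of the 10 subfamilies, with 1 point per library (filled circles wild type, open triangles knockout, colours for regions). The Kv3 gene Kcnc1 was highest in cerebellum, while Kcnq3 and Kcnab2 were lowest there.

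The summed level of the family per library was 876 to 988 CPM per kb in cerebellum, 1070 to 1120 in cortex and 920 to 980 in hippocampus. Cortical libraries thus lay above all others on this scale. As a plain share of reads, knockout cortex 2 (0.6136%) lay among the cerebellar libraries (0.6085% to 0.6407%). The other cortical libraries were at 0.7215% to 0.7471%. Below the summed level the regions differed in makeup. The 4 Kv3 genes, which allow fast repolarisation, summed to 179 ± 9.92 CPM per kb in cerebellum (SD, n = 6), 93.7 ± 10.3 in cortex (n = 4) and 78.9 ± 3.32 in hippocampus (n = 4). The 5 Kv7 genes, some of which carry the slow M-type current, ran the other way, with 26.5 ± 3.29, 88.9 ± 7.84 and 97.5 ± 4.78 CPM per kb. For the 8 EAG, ERG and ELK genes the sums were 26.9 ± 5.77, 112 ± 20.9 and 44.5 ± 2.59 CPM per kb, and for the 12 Kv2 and silent genes 42.5 ± 2.67, 124 ± 11.5 and 74.2 ± 3.61. Of these sums, the Kv3, Kv7, EAG group and Kv2 ones did not overlap between cerebellum and cortex.

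**Figure D2:**
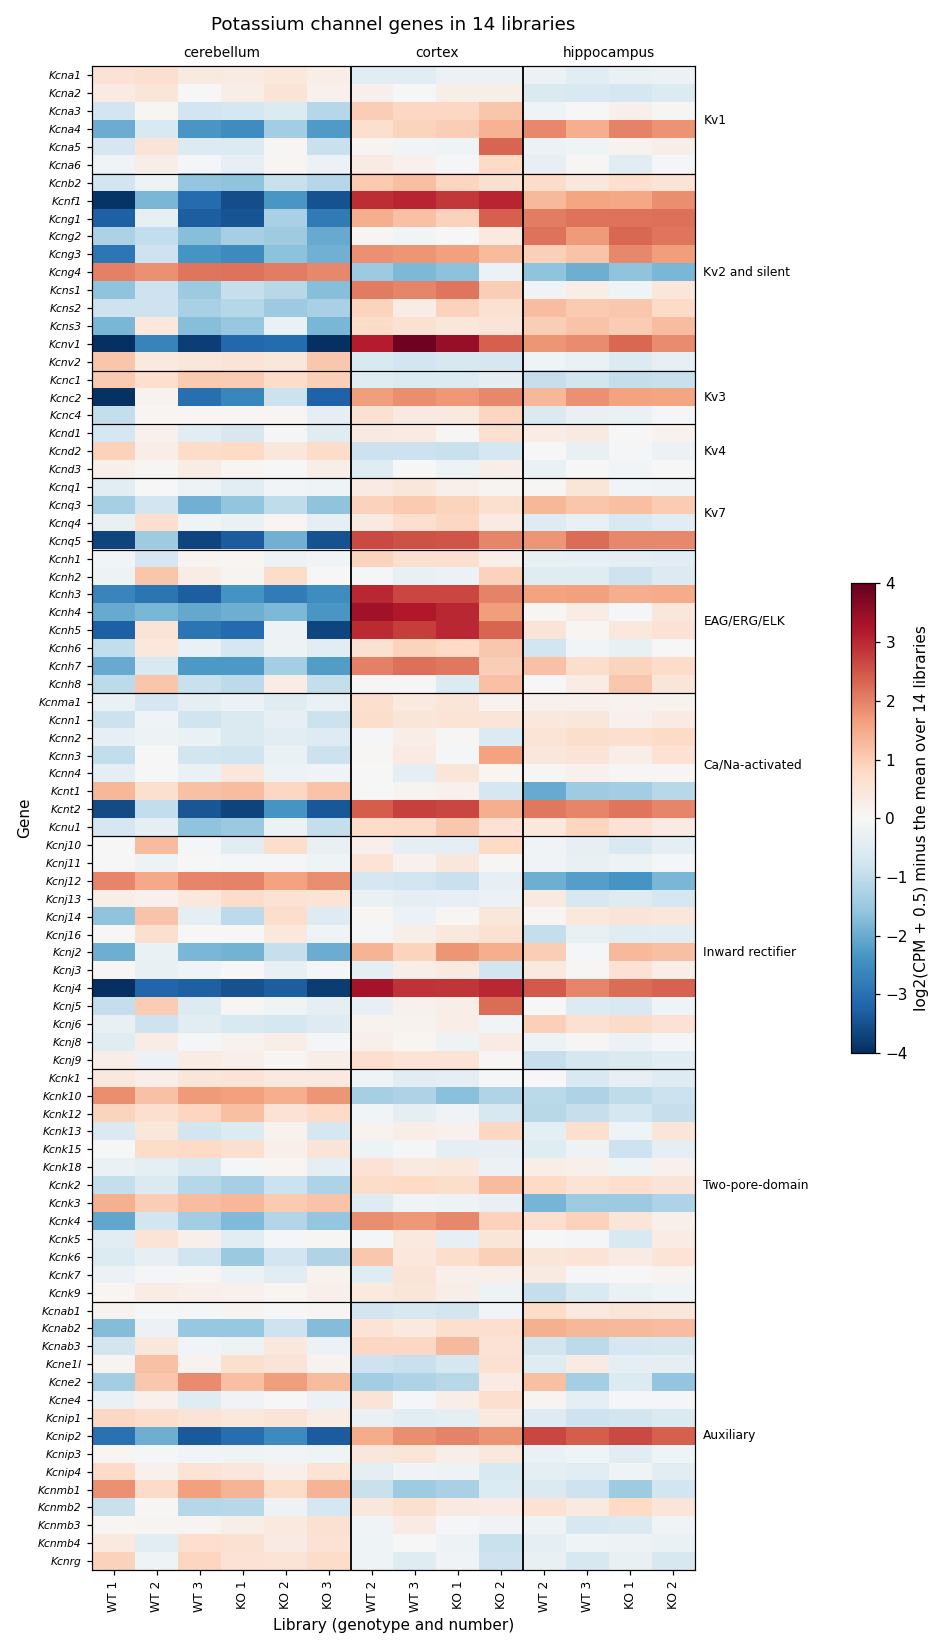
Levels of 84 members (rows, by subfamily) in the 14 libraries (columns, by region and genotype), as log2(CPM + 0.5) minus the gene's mean over libraries. Rows such as Kcnf1, Kcnv1, Kcnj4, Kcnq5 and Kcnt2 are low in cerebellum, Kcng4, Kcnj12 and Kcnk10 are high there, and wild-type and knockout columns of a region look alike except knockout cortex 2, cerebellum 2 of both genotypes and wild-type cerebellum 1.

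Regions were compared by edgeR's quasi-likelihood test as the mean of the wild-type and knockout contrasts, with Benjamini-Hochberg adjustment over 24680 genes and a threshold of 0.05. The cerebellum differed from the cortex in 69 of 87 members (79.3%), with 22 higher and 47 lower. Of all genes tested, 48.4% were called in that comparison, 23.0% higher and 25.3% lower. The median log2 difference was -0.68 over the members and 0.01 over all genes. Against the hippocampus, the cerebellum differed in 62 members (71.3%), 26 higher and 36 lower, where 47.3% of all genes were called (22.6% higher, 24.7% lower), with medians of -0.42 and 0.02. The hippocampus differed from the cortex in 30 members (34.5%), 6 higher and 24 lower, where 12% of all genes were called (5.49% higher, 6.48% lower), with medians of -0.33 and -0.00. Without the 3 libraries that stand apart most (knockout cortex 2 and wild-type cerebellum 1 and 2), the counts higher and lower were 24 and 45, 29 and 38, and 10 and 27 in the same order. In that fit 21.1% and 23.4%, 23.8% and 25.8%, and 8.90% and 9.06% of all genes were called. The 24 members lower in hippocampus became 14 without knockout hippocampus 1 (3.17% of all genes) and 15 without wild-type hippocampus 2 (3.52%). Libraries of cerebellum and cortex did not overlap in 57 members (34.2% of all genes), of cerebellum and hippocampus in 59 (42.5%), and of hippocampus and cortex in 38 (18.8%).

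The 3 comparisons share libraries, so calls in more than 1 of them are given side by side and not as separate support. There were 35 members lower in cerebellum than in both other regions and 19 higher, patterns that 18.9% and 16.8% of all genes showed. In cortex 14 members were higher than in both others (3.55% of all genes), and 2 were lower (1.91%), Kcnab1 and Kcnd2. In hippocampus 5 were higher than in both others (among them Kcnab1, Kcng2, Kcnj6 and Kcnn2) and 11 were lower, against 3.67% and 3.1% of all genes. A graded order from cortex over hippocampus to cerebellum, with all 3 steps called, was seen for 7 members (1.42% of all genes), among them Kcna3, Kcnh3, Kcnh4, Kcnj4, Kcnk4 and Kcns1. No comparison called 12 members (40.2% of all genes), among them the glial Kcnj10 and the A-type channel gene Kcnd3.

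**Figure D3:**
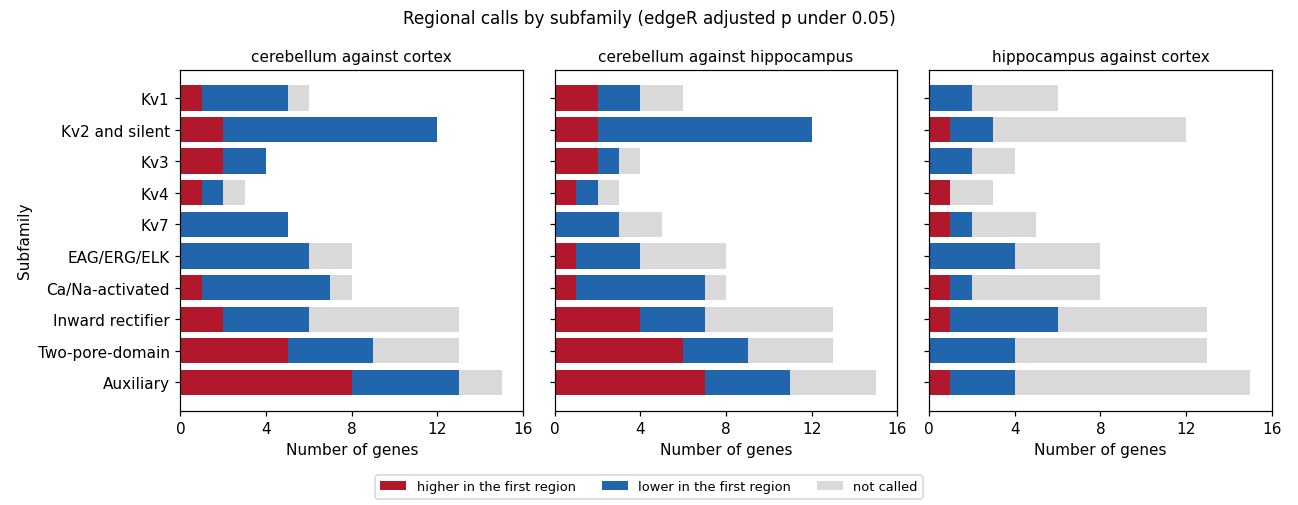
Number of members per subfamily called higher (red), lower (blue) or not called (grey) in the first-named region, by edgeR's adjusted p under 0.05, for the 3 comparisons between regions. All 12 Kv2 and silent genes were called in both comparisons with the cerebellum, 10 of them lower there.

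Among the Kv1 genes, whose channels open near rest and limit firing along axons, Kcna1 was at 293 to 382 CPM in cerebellum (median 322). It was at 207, 207, 181 and 178 CPM in knockout cortex 1 and 2 and wild-type cortex 2 and 3, and at 202, 206, 206 and 181 CPM in knockout hippocampus 1 and 2 and wild-type hippocampus 2 and 3. Every cerebellar library lay above all forebrain libraries, and the difference from cortex was 0.78 ± 0.08 (log2 fold change ± SE, edgeR adjusted p = 5.7e-06). Kcna2, its usual partner, was at 520 to 734 CPM in cerebellum (median 623) and 509 to 603 CPM in cortex, which overlap, and at 322 to 347 CPM in hippocampus. Kcna2 was thus lower in hippocampus than in cortex, by -0.78 ± 0.11 (edgeR adjusted p = 0.00063). Kcna4, which gives an inactivating A-type current, had 4.25 to 16.8 CPM in cerebellum and 41.7 to 69.3 CPM in cortex, with 72.5 to 105 CPM in hippocampus. Its 2 highest cerebellar libraries were wild-type and knockout cerebellum 2 (16.8 and 9.55 CPM). Of the 6 Kv1 genes, 1 was higher and 4 lower in cerebellum than in cortex.

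The Kv2 group joins delayed rectifiers such as Kcnb2 with silent subunits, which make no channel alone and reshape Kv2 currents. Kcnb2 was at 15.1 to 40.8 CPM in cerebellum. It was at 85.2, 71.7, 97.3 and 109 CPM in cortex and at 74.9, 69.1, 77.5 and 64.7 CPM in hippocampus (knockout 1 and 2, wild type 2 and 3). Every cerebellar library lay below all forebrain libraries.

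Silent subunits parted the regions further. Kcnv1 had 0 to 24 reads in each cerebellar library (0 to 0.819 CPM, median 0.280), with 0 reads in knockout cerebellum 3 and wild-type cerebellum 1. In cortex it was at 92.9, 43.4, 72.3 and 122 CPM (knockout 1 and 2, wild type 2 and 3), and in hippocampus at 40.0, 30.4, 28.0 and 30.4 CPM (knockout 1 and 2, wild type 2 and 3). The log2 fold change of cerebellum against cortex was -7.91 ± 0.58 (edgeR adjusted p = 2.5e-06), which depends on the handful of cerebellar reads and became -9.09 without wild-type cerebellum 2. Kcnf1, another silent subunit, had 0.441 to 3.55 CPM in cerebellum, 99.8 to 118 CPM in cortex and 34.8 to 51.6 CPM in hippocampus. That was -6.17 ± 0.46 against cortex and -4.78 ± 0.44 against hippocampus (edgeR adjusted p = 2.7e-06 and 1.2e-05), with wild-type cerebellum 2 the highest cerebellar library.

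Kcng4 went the opposite way to most silent subunits. Its lowest, median and highest cerebellar levels were 105, 120.0 and 132 CPM. The cortical libraries held 9.04, 24.7, 10.2 and 7.99 CPM (knockout 1 and 2, wild type 2 and 3) and the hippocampal libraries 9.23, 7.72, 9.06 and 7.08 CPM. Knockout cortex 2 stood above the other forebrain libraries and still far below the cerebellum. Cerebellum was 9.60-fold above cortex (log2 3.26 ± 0.25, edgeR adjusted p = 1e-06) and 14.4-fold above hippocampus (3.85 ± 0.26, adjusted p = 3e-07). Without knockout cortex 2 the difference from cortex was 3.72, in a fit that called 44.6% of all genes. Kcnv2, the other silent gene higher in cerebellum, was rare, at 0.955 to 1.90 CPM there and at most 0.230 CPM in cortex (2.68 ± 0.36, edgeR adjusted p = 5.8e-05). Kcns1, a modulator of Kv2, was at 17.5, 7.66, 17 and 15.6 CPM in cortex and 3.17, 5.15, 3.27 and 4.41 CPM in hippocampus (knockout 1 and 2, wild type 2 and 3). It was lower in hippocampus by -1.84 ± 0.32 (edgeR adjusted p = 0.0024), and the cortical value closest to hippocampus was knockout cortex 2.

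Of the Kv3 genes, Kcnc1, a high-threshold channel of fast-firing neurons, was higher in cerebellum than in cortex (1.42 ± 0.10, edgeR adjusted p = 2.6e-07). Kcnc1 was at 549 to 712 CPM in cerebellum, 234 to 261 in cortex and 178 to 209 in hippocampus, which sets all 3 regions apart. Kcnc2 ran the other way, at 146 to 175 CPM in cortex and 117 to 164 in hippocampus. In cerebellum it was at 50.1 CPM in wild type 2 and 25.1 in knockout 2, but at 2.52 to 7.08 CPM in the other 4 libraries. These 2 libraries were also the ones with raised oligodendrocyte markers. Tcf7l2, from the thalamic list, was at 45.3 and 19.2 CPM in them against 8.65 to 11.7 CPM. The 8 thalamic markers together were at 855 and 811 CPM in them against 784 to 953 CPM in the other cerebellar libraries. That sum was at 207 to 296 CPM in the forebrain libraries other than knockout cortex 2. Being high in every cerebellar library, it cannot show whether thalamic cells were present in some of them. The part of other cells in these Kcnc2 levels was not tested.

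Kv4 channels carry the somatodendritic A-type current. Kcnd2, their main hippocampal and granule cell subunit, was at 285 to 447 CPM in cerebellum (median 394). It was at 128, 146, 130 and 129 CPM in cortex and at 228, 199, 231 and 192 CPM in hippocampus (knockout 1 and 2, wild type 2 and 3). The cortex was the lowest of 3 regions that did not overlap, and hippocampus exceeded it by 0.67 ± 0.14 (edgeR adjusted p = 0.0062). Kcnd3 was nearly even, with 129 to 154 CPM in cerebellum, 90.9 to 150 in cortex and 105 to 125 in hippocampus, and passed no regional test.

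KChIP proteins, encoded by the Kcnip genes, bind Kv4 pores and raise their surface number. Kcnip2 was at 2.08 to 6.24 CPM in cerebellum (median 2.76), at 103, 91.7, 74.0 and 94.6 CPM in cortex and at 164, 137, 169 and 140.0 CPM in hippocampus. The cerebellum lay 45.6-fold below the hippocampus (-5.51 ± 0.28, edgeR adjusted p = 5.7e-08). Hippocampus and cortex did not overlap for Kcnip2, yet their difference missed the threshold (0.75 ± 0.27, edgeR adjusted p = 0.10). Kcnip4 and Kcnip1 were higher in cerebellum than in both other regions, Kcnip4 at 91.1 to 138 CPM against 52.2 to 72.7 in cortex. Kcnip1 libraries of cerebellum and cortex overlapped through knockout cortex 2 (33.8 CPM). Kcnip3 was higher in cortex than in both other regions, at 94.9 to 112 CPM against 70.8 to 83.6 in cerebellum and 57.7 to 71.2 in hippocampus.

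All 5 Kv7 genes were lower in cerebellum than in cortex. Kcnq3, a subunit of the M-type channel, was at 57.9 to 130 CPM in cerebellum, 344 to 453 CPM in cortex and 446 to 546 CPM in hippocampus, where cortex and hippocampus overlapped. It was lower in cerebellum than in cortex by -2.20 ± 0.19 (edgeR adjusted p = 2.6e-06). Kcnq5, a further M-current subunit, was at 1.90 to 10.9 CPM in cerebellum against 119 to 191 CPM in cortex (-5.17 ± 0.54, edgeR adjusted p = 3.9e-05), with the top cerebellar values again in wild type 2 (10.9 CPM) and knockout 2 (7.62).

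In the EAG, ERG and ELK group, 6 of 8 genes were lower in cerebellum than in cortex and none higher. The ELK gene Kcnh3, which opens below the spike threshold, was at 1.45 to 3.14 CPM in cerebellum (median 2.41). It was at 122, 74.8, 153 and 122 CPM in cortex and 51.6, 53.3, 58.6 and 59.8 CPM in hippocampus (knockout 1 and 2, wild type 2 and 3). Cerebellum was 49.2-fold below cortex and 23.6-fold below hippocampus (-5.62 ± 0.18 and -4.56 ± 0.17, edgeR adjusted p = 4.7e-10 and 1.2e-09). These were the smallest adjusted p-values of the family in both comparisons.

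Kcnh4, the other ELK gene named by the rule, was at 30.6, 11.7, 38.6 and 34.8 CPM in cortex and 3.21, 4.71, 3.48 and 4.25 CPM in hippocampus. In cerebellum it was at 0.272 to 0.613 CPM. It was the most significant of the members in hippocampus against cortex (-2.83 ± 0.28, edgeR adjusted p = 4.3e-05). Kcnh7, an ERG channel, was at 437, 199, 403 and 467 CPM in cortex, 188, 166, 225 and 163 CPM in hippocampus and 20.1 to 65.7 CPM in cerebellum. Its value in knockout cortex 2 fell among the hippocampal ones, and its hippocampal difference missed the threshold (-1.01 ± 0.40, edgeR adjusted p = 0.15). Kcnh1, the EAG channel, was higher in cortex (115 to 180 CPM) than in cerebellum (61.2 to 106) and hippocampus (71.0 to 79.7).

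Of the ion-activated channels, Kcnma1 encodes the large-conductance BK pore and was lower in cerebellum, at 167 to 227 CPM against 293 to 428 in cortex and 294 to 304 in hippocampus. The sodium-activated Kcnt1 and Kcnt2 were opposite in the regions. Kcnt1 was at 291 to 465 CPM in cerebellum (median 418), at 208, 118, 186 and 203 CPM in cortex and at 71.0, 85.7, 45.3 and 68.9 CPM in hippocampus, with no overlap between regions. Its hippocampal level was below the cortical one by -1.41 ± 0.21 (edgeR adjusted p = 0.00096). Kcnt2 was at 0.531 to 6.21 CPM in cerebellum, 36.0 to 87.1 in cortex and 50.5 to 58.1 in hippocampus. Cerebellum was below hippocampus by -4.94 ± 0.62 (edgeR adjusted p = 0.00012), a value that became -5.89 without wild-type cerebellum 2, where the 6.21 CPM were measured. The SK channel gene Kcnn2, which shapes the afterhyperpolarisation, was at 66.4, 70.5, 60 and 68.1 CPM in hippocampus and 42.4, 28.0, 38.7 and 49.5 CPM in cortex (0.75 ± 0.13, edgeR adjusted p = 0.0018). In cerebellum it was at 27.7 to 35.6 CPM.

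The strongly rectifying Kir2 genes Kcnj4 and Kcnj12 differed in opposite directions between cerebellum and the forebrain regions. Kcnj4 had 2 to 18 reads in each cerebellar library (0.0883 to 0.614 CPM, median 0.457). Cortex held 72.5, 81.5, 99.6 and 73.7 CPM and hippocampus 46.5, 51.6, 54.5 and 38.7 CPM (knockout 1 and 2, wild type 2 and 3). Every region was separate, and the cerebellum lay 196-fold below cortex (-7.61 ± 0.28, edgeR adjusted p = 2.7e-09) and 115-fold below hippocampus (-6.84 ± 0.27, adjusted p = 4.3e-09). Kcnj12 was at 54.0 to 75.5 CPM in cerebellum (median 72), 9.93, 14.9, 11.6 and 10.7 CPM in cortex and 3.26, 4.93, 4.49 and 3.70 CPM in hippocampus. Cerebellum exceeded hippocampus 16.5-fold, the widest rise among the members (4.05 ± 0.18, edgeR adjusted p = 5e-09), and cortex exceeded hippocampus as well, the latter being lower by -1.53 ± 0.18 (adjusted p = 0.00013).

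The GIRK genes Kcnj3, Kcnj6 and Kcnj9, opened by G proteins, differed from each other. Kcnj6 was at 159, 139, 183 and 144 CPM in hippocampus and 113, 87.3, 104 and 104 CPM in cortex (0.61 ± 0.13, edgeR adjusted p = 0.0082), with 52.7 to 77.0 CPM in cerebellum. Kcnj9 was lowest in hippocampus, at 55 to 76.4 CPM against 106 to 164 CPM in cortex and 88.6 to 128 CPM in cerebellum. Kcnj3 passed no test, and another transcript on the opposite strand covers 31.1% of its exon bases. Kcnj10, the Kir channel of glia, was at 159 to 509 CPM in cerebellum, 163 to 370 in cortex and 138 to 193 in hippocampus, and the regions overlapped. Its highest libraries were wild-type cerebellum 2 (509 CPM), knockout cortex 2 (370) and knockout cerebellum 2 (347), in which the oligodendrocyte transcript Mbp was at 4210, 3140 and 2150 CPM against 874 to 1770 in the other cerebellar and cortical libraries. In hippocampus Mbp was at 1470, 1950, 2430 and 2250 CPM and Kcnj10 at 138, 161, 193 and 170 CPM (knockout 1 and 2, wild type 2 and 3). Wild-type cerebellum 2, knockout cortex 2 and knockout cerebellum 2 held 4610, 7970 and 4080 CPM of the 8 astrocyte markers. The other cerebellar libraries held 3330 to 3630 CPM and the other cortical ones 6540 to 7000. The hippocampal libraries held 6990, 6860, 6790 and 6950 CPM in the same order as above. The part of oligodendrocyte or astrocyte content in these Kcnj10 levels was not tested.

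Background channels of the two-pore-domain group included 5 genes higher and 4 lower in cerebellum than in cortex. Kcnk10 (TREK-2, opened by stretch and lipids) was at 49.0 to 78.6 CPM in cerebellum (median 69.3), against 6.32, 9.08, 8.28 and 8.87 CPM in cortex and 10.3, 11.6, 9.77 and 8.77 CPM in hippocampus. Cerebellum stood 8.17-fold above cortex (3.03 ± 0.16, edgeR adjusted p = 2.2e-08), and the cortical and hippocampal libraries overlapped. Kcnk3, an acid-sensitive leak channel, was at 62.2 to 85.3 CPM in cerebellum, 21.7 to 28.1 in cortex and 8.26 to 13.1 in hippocampus, a separate level in each region. Cerebellum exceeded hippocampus by 2.73 ± 0.14 (edgeR adjusted p = 1.2e-08). The related acid-sensitive gene Kcnk9 was nearly even between cerebellum (28.2 to 33.1 CPM) and cortex (23.2 to 37.8), and lower in hippocampus (at most 23.8), which overlapped cortex through knockout cortex 2. Kcnk1, the most abundant leak gene per kilobase, was at 96.0 to 116 CPM in cerebellum, above 52.5 to 79.2 CPM in the forebrain libraries.

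Among auxiliary genes, the 3 Kv beta subunits had 3 different arrangements. Kcnab2 was at 92.8 to 266 CPM in cerebellum (median 109), at 486, 499, 456 and 410 CPM in cortex and at 766, 732, 832 and 781 CPM in hippocampus. The cerebellar differences were called (-1.72 ± 0.28 against cortex and -2.47 ± 0.28 against hippocampus, edgeR adjusted p = 0.00046 and 3.6e-05), while that between hippocampus and cortex was not (0.75 ± 0.31, adjusted p = 0.16). Kcnab1 was lowest in cortex, at 62.2, 95.7, 60.3 and 65.3 CPM, and highest in hippocampus, at 145, 140.0, 171 and 136 CPM (1.07 ± 0.13, edgeR adjusted p = 0.00015). Kcnab3 was highest in cortex, at 71.3, 43.2, 51.7 and 51.8 CPM, and lowest in hippocampus, at 18.1, 18.4, 17.3 and 13.8 CPM (-1.69 ± 0.26, edgeR adjusted p = 0.0013). Kcnmb1, a BK beta subunit known best from smooth muscle, was at 4.32 to 9.71 CPM in cerebellum, 0.571 to 1.48 in cortex and 0.580 to 1.43 in hippocampus (2.82 ± 0.35 against cortex, edgeR adjusted p = 2.9e-05).

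Kcng2, a further silent subunit, gave the widest rise from cortex to hippocampus. It was at 21.7, 19.7, 20.2 and 14.4 CPM in hippocampus, at 4.07, 5.49, 4.18 and 3.69 CPM in cortex and at 0.634 to 1.81 CPM in cerebellum. The hippocampal libraries lay above all others, 4.35-fold above cortex (2.12 ± 0.24, edgeR adjusted p = 0.00011). A transcript on the opposite strand covers 9.10% of its exon bases, and the strand setting of the counts is not given in the sources used here.

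Proteins without a Kcn symbol that bind or cluster these channels, or conduct beside them, were followed as a list of 31 genes, of which 30 were tested. In cerebellum against cortex 6 were higher and 13 lower, in cerebellum against hippocampus 9 were higher and 7 lower, and in hippocampus against cortex 3 were higher and 6 lower. Of all genes, 23.0% and 25.3%, 22.6% and 24.7%, and 5.49% and 6.48% were called higher and lower in the same order. The list's medians were -0.23, 0.08 and -0.25 on the log2 scale, against 0.01, 0.02 and -0.00 over all genes. Of the Kv4 partners Dpp6 and Dpp10, Dpp10 was at 33.2 to 56.2 CPM in hippocampus and 163 to 245 in cortex (-2.16 ± 0.16, edgeR adjusted p = 5e-06), whereas Dpp6 was at 439 to 487 and 216 to 445 CPM, which overlap (0.69 ± 0.16, adjusted p = 0.014, a call lost in 3 of the fits that leave out 1 library). The BK gamma subunit Lrrc38 was higher in cerebellum (4.16 to 8.23 CPM) than in cortex (1.38 to 2.93), and its relative Lrrc55 was lower there (1.85 to 8.56 CPM against 23.4 to 29.1). Kctd16 and Kctd12 tune GABA-B receptors, which open GIRK channels. Kctd16 was at 2.04 to 8.09 CPM in cerebellum and 54.1 to 101 in cortex (-4.46 ± 0.39, edgeR adjusted p = 7e-06), while Kctd12 was higher in cerebellum (1.29 ± 0.25, adjusted p = 0.0013).

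The genotypes were set against each other within regions. No member was called in cerebellum, cortex, hippocampus or the mean of the 3 regions by edgeR, DESeq2 or limma voom, and edgeR called 0% of all genes in each single region and 0.00405% in the mean. DESeq2 called 0.0081%, 0.203%, 0.0081% and 0.328% of all genes in the same order, and limma voom 0%, 0%, 0% and 0.00405%. At an unadjusted p under 0.05, edgeR found 1 member in cerebellum, 5 in cortex, 1 in hippocampus and 0 in the mean, where 3.18%, 7.39%, 1.91% and 5.76% of all genes passed. DESeq2 found 1, 6, 1 and 0 members at that level, where 3.21%, 7.25%, 1.78% and 5.77% of all genes passed. With limma voom 1, 4, 1 and 0 members passed, and 3.22%, 9.30%, 1.70% and 5.62% of all genes. The smallest edgeR adjusted p of a member was 1, 0.67, 1 and 0.95. With number as a block in the cerebellum, 0 members were called by edgeR, where 0.421% of all genes were, and 12 members had an unadjusted p under 0.05 (9.36% of all genes). Correlations between the cerebellar libraries set only number 2 apart as a pair.

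The size of the differences was small beside their error. The median absolute log2 fold change of the members was 0.18 in cerebellum, 0.25 in cortex and 0.14 in hippocampus, with median SEs of 0.29, 0.34 and 0.34. Differences were under 0.5 in 75, 73 and 77 of the 87 members. Wild-type and knockout libraries did not overlap in 6, 25 and 26 members, where 9.30%, 27.3% and 36.6% of all genes did not.

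**Figure D4:**
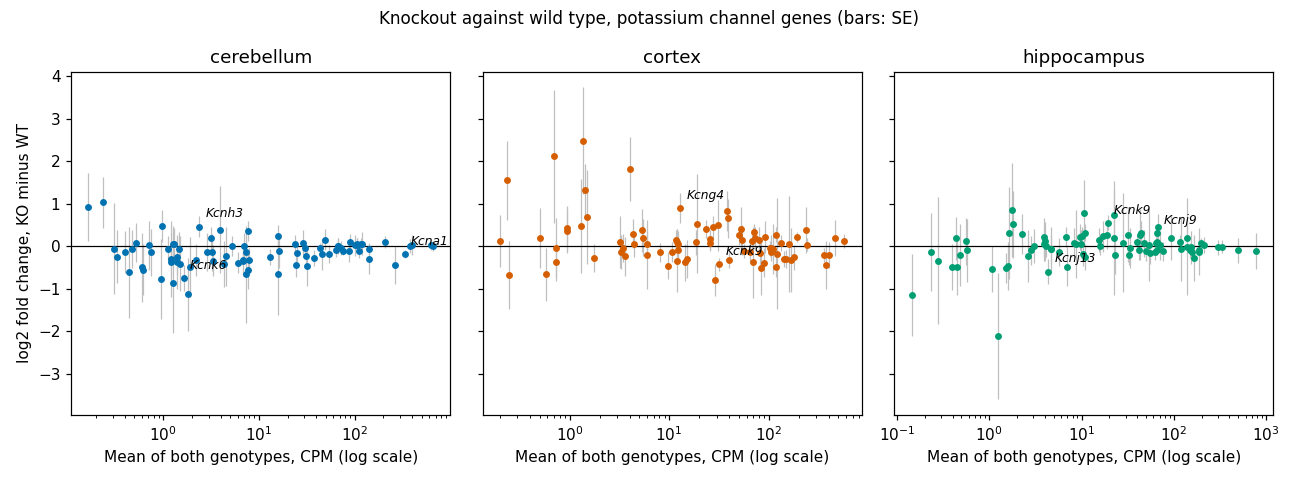
Log2 fold change of knockout against wild type (edgeR, bars are SE) of 84 members against their mean level in CPM (log scale), in the 3 regions. Members with p-values among the 3 smallest are named in each panel, most points lie within 0.5 of 0, and none passed an adjusted p of 0.05.

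In cerebellum the smallest p belonged to Kcnk6, a two-pore-domain gene. It was at 0.840, 1.68 and 1.13 CPM in knockout 1 to 3 and at 2.07, 2.49 and 1.65 CPM in wild type 1 to 3. The groups overlapped narrowly, and the difference of -0.75 ± 0.30 had an edgeR adjusted p = 1. Kcnh3 came next (0.46 ± 0.24), at 3.14, 2.26 and 2.95 CPM against 2.56, 2.05 and 1.45 CPM. Kcna1 was the third, at 309, 331 and 293 CPM against 365, 382 and 314 CPM (-0.18 ± 0.10), again with overlapping groups. Within each of the 3 pairs of cerebellar libraries with the same number, Kcnk6 and Kcna1 were at lower and Kcnh3 at higher levels in the knockout. With number as a block their differences were -0.78 ± 0.30, -0.18 ± 0.08 and 0.47 ± 0.27 (edgeR adjusted p = 0.4, 0.49 and 0.64).

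In cortex Kcnk9 and Kcng4 had p-values among the 3 smallest. Kcnk9 was at 31.2 and 23.2 CPM against 35.5 and 37.8 CPM (-0.43 ± 0.16, edgeR adjusted p = 0.67). Kcng4 was at 9.04 and 24.7 CPM against 10.2 and 7.99 CPM (0.90 ± 0.35, adjusted p = 0.67), and its difference was -0.02 without knockout cortex 2. The wild-type libraries and knockout cortex 1 lay together for Kcng4, and knockout cortex 2 stood alone.

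Knockout cortex 2 was apart from the other 3 cortical libraries in further members. It lay over 2-fold above the highest of them in 8 members and below 0.5 of the lowest in 4. The remaining 75 were less than 2-fold beyond the range of the other libraries, and many of these still lay outside that range. Of all genes tested, 3.85% lay as far above and 11.5% as far below in that library. The cardiac and vascular Kv1 gene Kcna5 was at 11 CPM against 1.53 to 1.95, and the GIRK gene Kcnj5 at 4.04 CPM against 0.268 to 0.637. The SK gene Kcnn3 was at 74.3 CPM against 23.0 to 30.3, and the choroid plexus subunit Kcne2 at 1.90 CPM against 0.230 to 0.382. Kcne1l, Kcng4, Kcnh2 and Kcnh8 were the other 4 above. Kcnh4, Kcnh7, Kcns1 and the rare Kcnk18 were below, at 11.7 against 30.6 CPM or more, 199 against 403 or more, 7.66 against 15.6 or more, and 0.237 against 0.609 or more. Striatal, thalamic and choroid plexus markers were raised in the same library, as given in the account of the libraries. Its hippocampal neuron markers summed to 287 CPM against 113 to 115 in the other cortical libraries, and GABAergic interneuron markers to 1020 against 539 to 601. Oligodendrocyte markers summed to 5700 CPM against 1770 to 3640, and cortical excitatory neuron markers to 1370 against 1950 to 2000. The part of these cell types in the levels of the members was not tested.

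**Figure D5:**
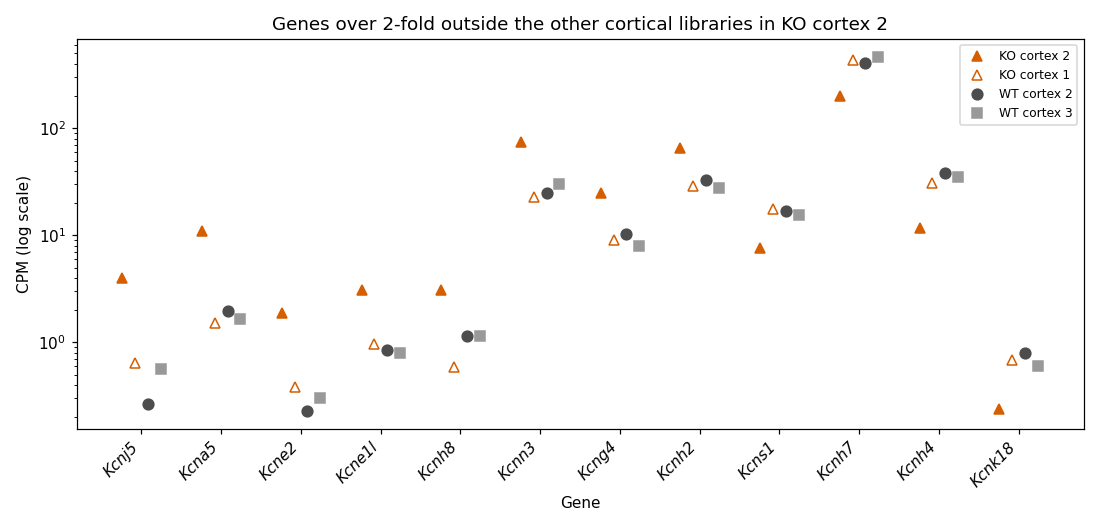
Levels (CPM, log scale) in the 4 cortical libraries of the 12 members whose level in knockout cortex 2 (filled triangles) was more than 2-fold outside the range of the other libraries (knockout cortex 1 open triangles, wild type circles and squares). Kcnj5, Kcna5 and Kcne2 stand farthest above the other libraries.

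Leaving out knockout cortex 1, so that knockout cortex 2 alone stood for its group, edgeR called 11 members in cortex, where 11.7% of all genes were called. Among them were Kcna5, Kcnab1, Kcne1l, Kcng4, Kcnh3, Kcnh4, Kcnip1, Kcnk9, Kcnn2 and Kcnn3, and that fit takes the lone library to vary like the other groups. In the same fit 1 member was called in the mean of regions (Kcng4; 0.609% of all genes), 5 in the difference of effects between cerebellum and cortex (6.01%) and 3 in that between hippocampus and cortex (2.95%). Leaving out knockout cortex 2 instead, 0 members were called.

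In hippocampus Kcnk9 had the smallest p of any member and region, at 22.3 and 23.8 CPM in knockout 1 and 2 and 13.7 and 17.7 CPM in wild type 2 and 3. The groups did not overlap, and the difference was 0.55 ± 0.17 (unadjusted p = 0.0059, edgeR adjusted p = 1). Kcnj13, a Kir gene of the choroid plexus, was at 3.75 and 3.18 CPM against 7.17 and 3.38 CPM (-0.60 ± 0.30, adjusted p = 1). The high library was wild-type hippocampus 2, where Ttr was high too, and the difference was 0.04 without it. In knockout cerebellum 1, 2 and 3 Ttr was at 1020, 883 and 848 CPM and Kcnj13 at 9.55, 8.42 and 8.25 CPM. In wild-type cerebellum 1, 2 and 3 Ttr was at 6.84, 562 and 1260 CPM and Kcnj13 at 6.71, 6.24 and 7.5 CPM. Knockout cortex 2 held 511 CPM of Ttr against 7.13 to 21.9 in the other cortical libraries, and 4.63 CPM of Kcnj13 against 4.23 to 4.48. The part of choroid plexus content in Kcnj13 was not tested. The gene Gigyf2 on the opposite strand covers 49.1% of the Kcnj13 exon bases. Kcnj9 was at 69.7 and 76.4 CPM against 55 and 63.1 CPM (0.31 ± 0.19, edgeR adjusted p = 1).

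Averaged over the 3 regions, the smallest p belonged to Kcng4 (0.34 ± 0.19, edgeR adjusted p = 0.95), Kcnip3 (-0.12 ± 0.07, adjusted p = 0.96) and Kcnn2 (-0.16 ± 0.10, adjusted p = 0.99). The value of Kcng4 was 0.03 without knockout cortex 2. In the tests of whether the genotype difference itself differed between regions, 0 members were called by edgeR, DESeq2 or limma voom, and edgeR called 0% of all genes. At an unadjusted p under 0.05 edgeR found 5 members for cerebellum against cortex, 3 for hippocampus against cortex and 2 for cerebellum against hippocampus (5.30%, 3.17% and 1.49% of all genes). DESeq2 found 5, 4 and 2 (5.28%, 3.18% and 1.39% of all genes), and limma voom 5, 2 and 2 (5.62%, 3.65% and 1.28%). Kcnk9 had the smallest p in both comparisons with hippocampus. Its knockout differences of 0.55 in hippocampus and -0.43 in cortex differ by 0.98 ± 0.24 (unadjusted p = 0.0011, edgeR adjusted p = 0.93). The lower of the cortical knockout values was that of knockout cortex 2 (23.2 CPM, against 31.2 in knockout cortex 1).

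Of the 30 partner genes, edgeR called 0 between genotypes in each region and in the mean, with 0, 3, 0 and 1 at an unadjusted p under 0.05. Of all genes, edgeR called 0% in each region and 0.00405% in the mean, and 3.18%, 7.39%, 1.91% and 5.76% had an unadjusted p under 0.05. Kcne2, a subunit of choroid plexus epithelium, varied widely within 1 genotype in cerebellum. It was at 0.221 CPM in wild-type cerebellum 1, which held the fewest choroid plexus markers, and at 3.51 to 6.60 CPM in the other 5 cerebellar libraries.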

How the data were processed

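Bulk RNA of 14 libraries (7 knockout, 7 wild type, 3 brain regions) was measured. The authors deposited 1 table of whole-number read counts per gene, and every column was mapped to a library. According to the submitters' processing notes, Trim Galore 0.6.4, cutadapt 2.10, STAR 2.7.3a, featureCounts 2.0.1 and the build GRCm38.p6 (mm10) were used. Annotation release, strand setting and handling of multi-mapping reads: not given in the sources used here, so counts of overlapping genes are uncertain. Symbols and exon lengths came from GENCODE M21 (48058 of 48440 identifiers matched without version suffix). No symbol there names CARIP, so the targeted gene is not reported.

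Genes were filtered with filterByExpr (24680 tested), scaled by TMM and fitted over 6 groups by edgeR 4.0.16 in R 4.3.3 (robust quasi-likelihood F-test, 8 residual degrees of freedom, biological coefficient of variation 24.7%), with Benjamini-Hochberg adjustment and a threshold of 0.05. The SE is the log2 fold change over the square root of F. Levels are CPM on TMM-scaled totals, computed here from the deposited counts. Scripts were tested on simulated data. Alternatives were RLE scaling, DESeq2 1.42.0, limma 3.58.1 voom, no filter, each library left out, each region alone and blocks on the replicate number. Further ones were the contrast of each genotype taken singly from the fit over all libraries, and 3 libraries left out after seeing the data.

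Numbers, taken from the titles, were used as pairs in a block fit of the cerebellar libraries. Deviations from the group means correlated at 0.29, 0.75 and 0.35 over 18919 genes between libraries with the same number 1, 2 and 3. The crossed values for numbers 1 and 3 were 0.33 and 0.43, so the correlations set only number 2 apart as a pair. Cortex and hippocampus share only number 2 between genotypes and allow no such fit. Libraries of different regions with the same genotype and number were treated as a random block (estimated correlation 0.096).

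The members and lists were chosen with earlier results of these data known. Named are the 2 highest members per subfamily per kilobase, up to 5 per direction and region contrast by fold among those that passed, had at least 1 CPM and did not overlap, the 3 smallest p-values per genotype contrast, the smallest per interaction, up to 2 partner genes per direction, and members at the read threshold. Other members named were chosen after their values were seen. Gene roles are background. Some items are not reported here, and figures of single members leave them out.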

Additional observations from a re-analysis of the deposited data

How the results depend on the processing

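Counts of members called between genotypes depended on 1 library. Over the fits that leave out 1 library each, the cortical count ran from 0 to 11, the mean of 3 regions from 0 to 1, and the differences of effects between cerebellum and cortex and between hippocampus and cortex from 0 to 5 and 0 to 3, with each upper value without knockout cortex 1. The other alternatives that were run gave 0, among them the replicate block in the cerebellum (0) and over genotype and number (0). Counts of members between cerebellum and cortex ran from 19 to 22 higher and 41 to 51 lower with 1 library left out, and between cerebellum and hippocampus from 23 to 28 and 34 to 39. With the random replicate block in limma they were 21, 48, 26 and 37. Hippocampus against cortex was less stable. Of 6 members higher and 24 lower, leaving out 1 library gave 5 to 9 and 14 to 28, with 14 lower without knockout hippocampus 1 and 15 without wild-type hippocampus 2. The wild-type contrast alone gave 2 higher and 13 lower (2.64% and 2.90% of all genes), the knockout contrast alone 3 and 8 (1.75% and 2.01%), and leaving out the 3 libraries that stand apart 10 higher and 27 lower. The cause was not tested, though the single-genotype contrasts hold fewer samples. Of single genes, 4 values reversed, none of them called. Kcng4 ran from -0.02 to 1.44 in cortex with 1 library left out, -0.02 being the value without knockout cortex 2 and without the 3 libraries, and it was at -0.01 in the mean without the 3. Kcnj13 ran from -1.05 to 0.04 in hippocampus, 0.04 being the value without wild-type hippocampus 2. Of the partner genes, Hcn4 and Dpp6 lost their calls in 8 alternatives. Depth limits the members under 1 CPM per kb, and 2 libraries per genotype limit cortex and hippocampus.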
